A study of Mus musculus with 10 samples.

Results

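Numbered Zfp genes are mouse genes whose symbol is Zfp followed only by digits, most of which encode zinc finger proteins. They were taken here from the probe sets that carry exactly 1 gene symbol. A gene was kept where the mean log2 signal of a probe set over all 10 arrays reached the median of all non-control probe sets, which corresponds to a signal of 151. Each gene was represented by the probe set with its highest mean. This gave 229 genes of the 305 numbered Zfp genes on the array, among 11601 genes with a probe set past the same threshold. The members were chosen by their mean signal, so their levels are described without a test. The difference between the groups took no part in the choice. The members just inside the threshold were Zfp189 at a mean signal of 154, Zfp474 at 157 and Zfp235 at 157. Just outside it lay Zfp28 at 151, Zfp352 at 148 and Zfp783 at 147. The 76 genes below the threshold had a median signal of 111, down to 28.8 for Zfp936, and are not described further.

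Most proteins of this class carry arrays of C2H2 fingers, small loops held by a zinc ion between pairs of cysteines and histidines, and each finger reads a few bases of DNA. Many also begin with a KRAB domain, which recruits the corepressor TRIM28 and through it the histone methyltransferase SETDB1, and so places repressive chromatin at the bound site. KRAB zinc finger genes lie in clusters that grew by gene duplication, and known targets include transposable elements and imprinted loci. Other numbered Zfp genes have no KRAB domain and act as developmental regulators, corepressor subunits, RNA-binding proteins or ubiquitin and SUMO ligases.

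RNA came from limb buds of mouse embryos, measured on 10 arrays: 5 carry the label wild type and 5 the label Dicer mutant, each set with replicate numbers 1 to 5. Parents heterozygous for a floxed Dicer allele and carrying the prxcre driver, a Cre transgene active in limb bud mesenchyme, were mated with mice homozygous for the floxed allele, so embryos of both groups inherit at least 1 floxed allele. The sources used here do not say whether heterozygous embryos are among those labelled wild type, whether 1 array holds 1 embryo or several, or which embryonic stage and which limb buds were taken. P-values therefore measure only the spread between these samples, which may be technical. Cre does not act in ectoderm, blood or vessels, so a limb bud still holds cells with intact Dicer. All 12 fixed markers of limb mesenchyme lay above the signal threshold, with a list mean of 9.64 to 9.99 on the log2 scale in wild type and 9.76 to 10.06 in mutant arrays. Median signals of the 10 arrays lay between 145.8 and 152.8. Precision is limited by how many arrays there are.

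Dicer1 itself, the gene deleted in the mutant, did not match the labels of the number 2 arrays. At its probe set 1427941_at the array labelled wild type 2 read 233, against 372 to 706 in the remaining wild type arrays. The array labelled Dicer mutant 2 had 360, against 205 to 226 in the remaining mutant arrays. The log2 difference was -0.74 over all 10 arrays (exact two-sided permutation p = 0.0159, n = 5 per group). The second tested probe set, 1460571_at, had a difference of -0.36 over the 10 arrays (exact two-sided permutation p = 0.0952) and read 551 and 774 in the arrays labelled wild type 2 and Dicer mutant 2. Without both arrays numbered 2 the differences were -1.08 and -0.57. Each had an exact two-sided permutation p of 0.0286, the smallest that 4 against 4 allows. The arrays were left out because of these same signals, so these p-values are no test of the labels. The comparison is therefore given for the 10 arrays as labelled and for the 8 arrays without both numbered 2, a choice made after seeing these signals. Values below are those of the 8 arrays unless the 10 are named. No p-value of the 8 arrays is corrected for that choice.

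Members lay at moderate signals. Their median signal was 305 and the middle 50% lay between 222 and 521, against a median of 312 and a middle 50% of 204 to 625 over all 22519 probe sets tested. Very bright members were few: 16 of 229 (6.99%) passed a signal of 1000, against 14.1% of all probe sets tested. The brightest was Zfp207, whose protein BuGZ binds spindle microtubules and the checkpoint protein BUB3, at a mean signal of 2436. Zfp503, which encodes the corepressor NOLZ1, followed at 2394, then Zfp445, a KRAB gene that helps maintain imprints, at 2061. Zfp871 had a mean signal of 1760, Zfp148 1737 and Zfp266 1551. Probe sets differ in brightness for the same amount of RNA, so this order is one of signals and not of transcript amounts. In each of these 6 genes the mutant and wild type signals overlapped. Zfp148 was the steadiest of the 6, with 1631 to 1776 in wild type and 1748 to 1832 in mutant arrays. Members varied a little more over the 10 arrays than other probe sets, with a median SD of 0.17 against 0.15 on the log2 scale.

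With all 10 arrays as labelled, no numbered Zfp gene passed the test. Limma called 0 of 229 members at a Benjamini-Hochberg adjusted p below 0.05, beside 0 of all probe sets tested (0.00%). At an unadjusted p below 0.05, 7 members were lower in mutant arrays (3.06%, against 2.10% of all tested) and 0 were higher (against 0.702%). The 7 were Zfp1, Zfp180, Zfp317, Zfp560, Zfp593, Zfp637 and Zfp652. The smallest adjusted p among members was 1.00. The median log2 fold change of the members, mutant minus wild type, was -0.039, and that of all probe sets tested was -0.021.

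In the 8 arrays, 4 members rose in the mutant limb buds and 3 fell. Zfp367, Zfp568, Zfp217 and Zfp704 rose 1.29-fold to 1.82-fold, and Zfp560, Zfp637 and Zfp811 fell 1.48-fold to 1.90-fold. The 4 rises are 1.75% of the members, where 0.928% of all probe sets tested rose, and the 3 falls are 1.31%, where 0.750% of all fell. In both directions together 7 of 229 members were called (3.06%), against 1.68% of all. The excess amounts to a few genes and was not tested. In bulk RNA, fewer cells of a type and less RNA per cell cannot be told apart.

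Zfp367, a zinc finger factor first studied in erythroid cells, showed the largest rise. Its signals were 500, 479, 610 and 648 in wild type 1, 3, 4 and 5 and 1056, 937, 1075 and 981 in Dicer mutant 1, 3, 4 and 5. All 4 mutant arrays lay above all 4 wild type arrays. The log2 fold change was 0.87 (SE 0.11, n = 4 per group, limma adjusted p = 0.00847). The arrays labelled wild type 2 and Dicer mutant 2 had 976 and 482, each among the signals of the opposite label, and over all 10 arrays the value was 0.49 (SE 0.24).

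Zfp568 encodes a KRAB protein needed in the early embryo, where it silences a placental promoter of Igf2. Its wild type signals were 674, 680, 810 and 790 for numbers 1, 3, 4 and 5, and its mutant signals 1097, 1114, 1201 and 1276. The 2 groups were separated by a gap, and the log2 fold change was 0.67 (SE 0.093, adjusted p = 0.0113). The arrays labelled wild type 2 and Dicer mutant 2 stood at 1099 and 523, the latter below every wild type array. Over all 10 arrays Zfp568 had a value of 0.32 (SE 0.23).

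Zfp217, whose human counterpart ZNF217 is an oncogene acting through CoREST and CtBP corepressors, had wild type signals of 458, 415, 420 and 396. Its mutant signals were 560, 590, 521 and 616. The log2 fold change was 0.44 (SE 0.084, adjusted p = 0.0387), and 0.23 (SE 0.15) over all 10 arrays. Zfp704 showed a smaller but narrow shift, from 467, 457, 462 and 494 in wild type to 571, 603, 610 and 632 in mutant arrays. Its value was 0.36 (SE 0.071, adjusted p = 0.0430), and 0.21 (SE 0.11) over all 10 arrays. In both genes the lowest mutant array of the 4 exceeded the highest wild type array.

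Zfp560 was the called member with the largest fall. Its signals were 336, 357, 287 and 461 in wild type and 223, 181, 169 and 178 in mutant arrays. Wild type 5 was the highest and the mutant arrays other than number 1 lay close together. The log2 fold change was -0.93 (SE 0.14, adjusted p = 0.0194), and -0.60 (SE 0.22) over all 10 arrays. Zfp637 went from 708, 836, 705 and 523 in wild type to 478, 427, 404 and 412 in mutant arrays. Wild type 5 came nearest to the mutant signals, and the value was -0.67 (SE 0.14, adjusted p = 0.0475), or -0.42 (SE 0.19) over all 10 arrays. Zfp811 fell from 208, 196, 223 and 189 to 131, 126, 137 and 159, a log2 fold change of -0.57 (SE 0.087, adjusted p = 0.0188), against -0.31 (SE 0.17) over all 10 arrays. Its mutant mean of 138 lay under the threshold signal of 151, so it passed the filter through its wild type arrays, and its distance from background is unknown.

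**Figure D1:**
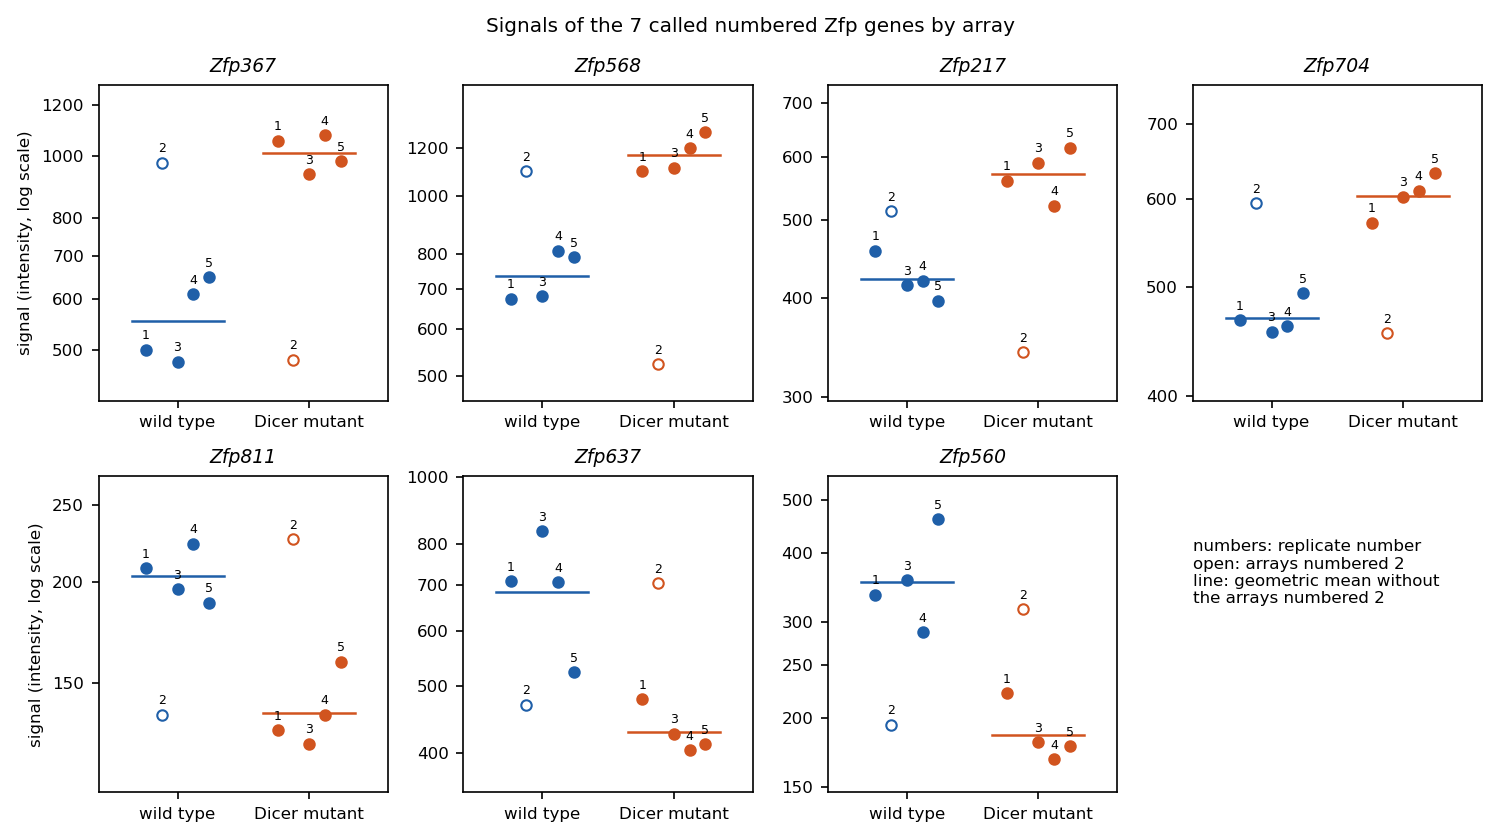
Signals (intensity, log scale) of the 7 called genes in each array, with wild type in blue and Dicer mutant in orange, each point labelled with its replicate number and lines at the geometric means without number 2. Filled points separate by group in every panel, as for Zfp367 (479 to 648 in wild type, 937 to 1075 in mutant arrays), while the open points of number 2 lie nearer the opposite group.

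Leaving out single arrays shortened this list. Zfp367 kept its call without each of the 8 arrays, at values of 0.80 to 0.94. Zfp568 lost it without wild type 3 or Dicer mutant 4, with an adjusted p of up to 0.0506. Zfp560 lost its call in 5 of the 8 refits and Zfp811 in 6, while Zfp217, Zfp637 and Zfp704 lost it in 7. Their adjusted p rose to at most 0.144 and their signs did not turn. Of wild type arrays, leaving out number 1 gave 2 called members in place of 7, number 3 gave 1 and number 4 gave 3. Of mutant arrays, leaving out number 1 gave 3, number 3 gave 2, number 4 gave 1 and number 5 gave 3. Leaving out wild type 5 gave 9 called members, the added ones being Zfp961 and Zfp950, the latter named after its values were seen. Numbers 1 and 3 alone gave 7 calls, of which 5 were among those above; Zfp217 and Zfp704 were not called there, and Zfp715 and Zfp950 were. Numbers 4 and 5 alone gave 0 calls. Log2 fold changes there were 0.38 to 0.71 for the 4 genes that rose and -1.07 to -0.48 for the 3 that fell. The share of all probe sets called in each refit is not given, so these counts describe only how far the calls held.

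The first principal component separated numbers 1 to 3 from 4 and 5, and the replicate number can be entered as a block in the 8 arrays. With the block, 16 members were called, 6 higher and 10 lower. That is 2.62% and 4.37% of the members, against 2.40% and 3.01% of all probe sets tested. All 7 genes above stayed called, and 9 were added. The added rises were Zfp451, a SUMO ligase (0.43, adjusted p = 0.0213 with the block and 0.121 without), and Zfp597 (0.48, 0.0482 with the block). The added falls were Zfp317 (-0.36, 0.0244 with the block), Zfp715 (-0.38, 0.0461), Zfp160 (-0.33, 0.0426) and Zfp180 (-0.29, 0.0480). Zfp939 (-0.27, 0.0392), Zfp58 (-0.27, 0.0377) and the bright Zfp871 (-0.27, 0.0478) completed them.

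Counts at weaker thresholds leaned towards lower levels, among the members and among all probe sets tested. At an unadjusted p below 0.05 in the 8 arrays, 21 members were lower in mutant arrays (9.17%, against 7.48% of all tested) and 9 were higher (3.93%, against 5.24%). All 4 mutant arrays lay below all 4 wild type arrays in 12 members (5.24%, against 4.97%) and above them in 8 (3.49%, against 4.12%). These shares are near those of all probe sets. The members' median log2 fold change was -0.054, where all probe sets had -0.0064, and 149 of 229 members (65.1%) had a negative value against 52.3% of all. Most of these values were small: the middle 50% of members lay between -0.16 and 0.049. The members' median difference by number was -0.076 for number 1, -0.089 for number 3, -0.045 for number 4 and 0.011 for number 5, so the lean was absent from the last pair. It was 0.013 for number 2. The same medians by number were not taken over all probe sets.

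**Figure D2:**
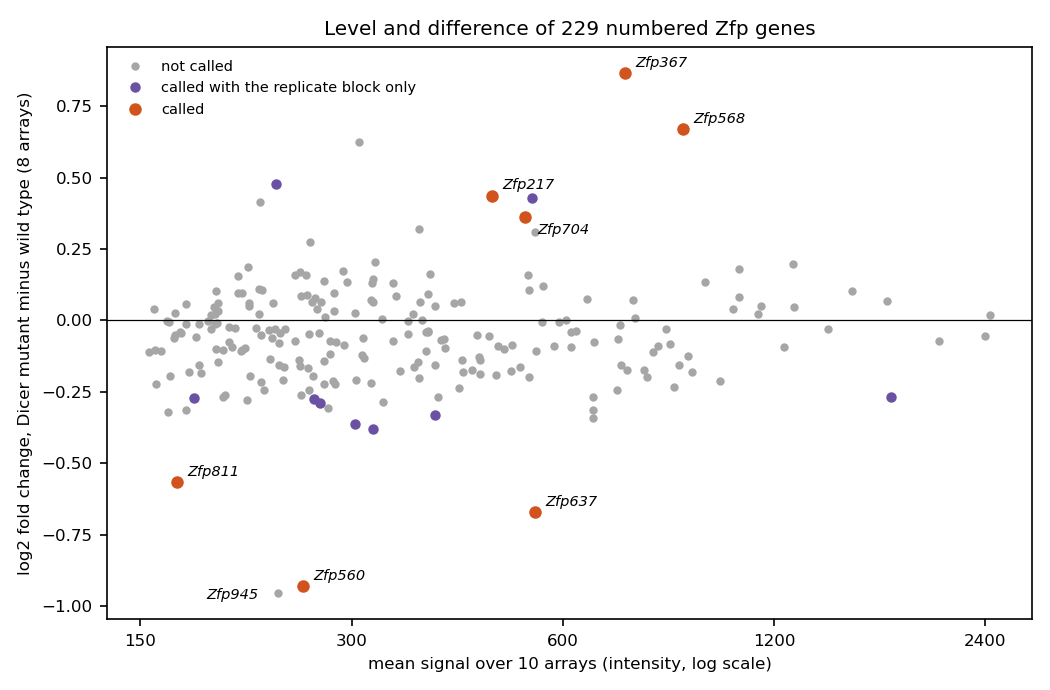
Each point is 1 of 229 genes, with the mean signal over 10 arrays (log scale) on the horizontal axis and the log2 fold change in the 8 arrays on the vertical axis. The 7 called genes (orange) lie between -0.93 and 0.87, the 9 called with the replicate block alone are purple, and most gray points crowd just below 0.

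Among members not called in either direction, Zfp945 had the lowest value of all, -0.95 (SE 0.52, adjusted p = 0.532). Its signals were 454, 453, 261 and 232 in wild type 1, 3, 4 and 5 and 381, 199, 53.7 and 216 in the mutant arrays, so the groups overlapped and Dicer mutant 4 stood alone. Zfp961 was the highest uncalled member, at 0.62 (SE 0.16, adjusted p = 0.104), with wild type signals of 279, 273, 286 and 178 and mutant signals of 390, 325, 412 and 419. Its groups did not overlap. The remaining members among the 10 largest rises were Zfp930 (0.41), Zfp827 (0.32) and Zfp606 (0.31). Among the 10 largest falls they were Zfp799 (-0.34), Zfp40 (-0.32) and Zfp128 (-0.31). None of these 6 was called, also with the block.

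Promoter windows are shown for the 5 called genes that have one in the RefSeq table, 2 that rose and 3 that fell, so that their sequences can be set beside the direction of change. The windows are the 250 bases before the most upstream RefSeq start (assembly GRCm38.p6), printed 5′ to 3′ on the gene's strand. Capitals mark 4 motifs on either strand, which do not contain one another: the CCAAT box (CCAAT), the GC box (GGGCGG), the ETS core (CCGGAAG) and the TATA box (TATAAA). These motifs were chosen after a wider search of the same windows. The rising genes are Zfp367 (chr13:64153200-64153449, minus strand) and Zfp217 (chr2:170142676-170142925, minus strand). The falling genes are Zfp560 (chr9:20385159-20385408, minus strand), Zfp637 (chr6:117840931-117841180, plus strand) and Zfp811 (chr17:32809932-32810181, minus strand).
Zfp367: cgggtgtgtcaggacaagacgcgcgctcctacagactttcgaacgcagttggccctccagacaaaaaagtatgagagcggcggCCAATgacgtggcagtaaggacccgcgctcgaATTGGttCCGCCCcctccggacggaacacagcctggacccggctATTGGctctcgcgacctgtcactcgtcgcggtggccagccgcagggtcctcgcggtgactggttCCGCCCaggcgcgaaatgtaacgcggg
Zfp217: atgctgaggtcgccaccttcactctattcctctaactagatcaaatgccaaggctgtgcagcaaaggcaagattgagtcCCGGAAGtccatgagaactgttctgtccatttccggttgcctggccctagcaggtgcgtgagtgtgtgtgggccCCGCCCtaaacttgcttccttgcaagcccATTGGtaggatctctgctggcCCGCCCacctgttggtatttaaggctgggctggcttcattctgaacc
Zfp560: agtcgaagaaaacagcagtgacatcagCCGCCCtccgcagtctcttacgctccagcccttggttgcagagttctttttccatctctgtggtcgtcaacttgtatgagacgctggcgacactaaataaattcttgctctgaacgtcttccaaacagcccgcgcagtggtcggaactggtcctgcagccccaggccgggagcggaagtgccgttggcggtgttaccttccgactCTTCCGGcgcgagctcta
Zfp637: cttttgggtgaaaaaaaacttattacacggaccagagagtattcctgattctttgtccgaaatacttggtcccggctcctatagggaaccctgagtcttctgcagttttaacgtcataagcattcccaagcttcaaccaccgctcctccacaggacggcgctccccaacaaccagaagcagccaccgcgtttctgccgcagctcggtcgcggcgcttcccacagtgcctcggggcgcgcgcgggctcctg
Zfp811: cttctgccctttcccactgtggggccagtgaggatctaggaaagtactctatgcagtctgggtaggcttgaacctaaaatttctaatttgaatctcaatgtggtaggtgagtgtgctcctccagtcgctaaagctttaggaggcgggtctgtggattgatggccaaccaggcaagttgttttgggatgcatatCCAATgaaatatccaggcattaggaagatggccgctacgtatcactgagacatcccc

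CG pairs, CCAAT boxes and ETS cores did not sort the 5 windows by direction. GC boxes numbered 2 in both genes that rose and 1 or 0 in the 3 that fell. With 5 windows and motifs chosen after a wider search, that difference was not tested. CG pairs numbered 29 in Zfp367 and 6 in Zfp217, which rose, and 19 in Zfp560, 19 in Zfp637 and 4 in Zfp811, which fell. Zfp367 held 3 CCAAT boxes and 2 GC boxes, Zfp217 held 1 CCAAT box and 2 GC boxes, Zfp560 held 1 GC box, Zfp811 held 1 CCAAT box and Zfp637 held no match. The ETS core occurred once each in Zfp217 and Zfp560, a gene that rose and one that fell. RefSeq windows were found for 185 of the 229 members, 224 windows in all, and were compared with all 32851 windows of the same length. The ETS core was in 16.5% of member windows against 6.91% of all, the CCAAT box in 44.6% against 33.8% and the GC box in 46.4% against 32.7%. The TATA box was in 6.70% against 12.4%. Member windows held a median of 13 CG pairs against 6 over all windows. The window table also covers genes that were not detected here, and these matches are descriptions of letters, not of bound sites.

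Other probe sets of the same genes gave a check on the chosen ones. Of the 229 members, 125 had several probe sets on the array and 72 had another tested one. These 113 other tested probe sets had the same sign as the member in 82 cases in the 8 arrays. Of the chosen probe sets, 200 ended in plain _at, 10 in _a_at, 8 in _s_at and 11 in _x_at, the last 2 being types that can hybridise to related transcripts, and none of the 7 called ones was of those types.

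Zfp451 had another tested probe set with a larger difference than its brightest one. Its brightest probe set, 1456415_at, was not called, but 1455943_at read 295, 298, 306 and 271 in the wild type arrays numbered 1, 3, 4 and 5, and 549, 525, 546 and 501 in their mutant counterparts. The groups were far apart, with a log2 fold change of 0.86 (SE 0.073, adjusted p = 0.000959). It was the only other tested probe set of a member to be called in the 8 arrays. Its probe set 1456350_at had a value of 0.33 (adjusted p = 0.298), and 1427208_at had a value of -0.085 (adjusted p = 0.896). Which part of the transcript each probe set reads is not known here.

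Zfp560 had a second probe set, 1458820_at, that went the opposite way. Its signals of 68.3, 76.4, 79.5 and 62.1 in wild type 1, 3, 4 and 5 and 105, 124, 127 and 130 in the mutant arrays did not overlap, a difference of 0.76 on the log2 scale. All of them lay below the signal threshold, so it was not tested and its distance from background is unknown. The fall of Zfp560 is therefore that of 1 of its 2 probe sets. The dim second probe sets of Zfp367 (1438772_at, 0.36) and Zfp568 (1459929_at, 0.30), both below the threshold, had the sign of the called ones. That of Zfp811 (1443930_at), also below the threshold, had the same sign but stood at only -0.098, and its groups overlapped. The second probe set of Zfp704, 1417849_at, was tested, at 0.18 (SE 0.14, adjusted p = 0.716). Zfp597 had a dim probe set at 0.86 (1460589_at) and a tested one at 0.020 (1430184_at, adjusted p = 0.963). The tested second probe set of Zfp961, 1433390_at, stood at -0.078 (adjusted p = 0.868).

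**Figure D3:**
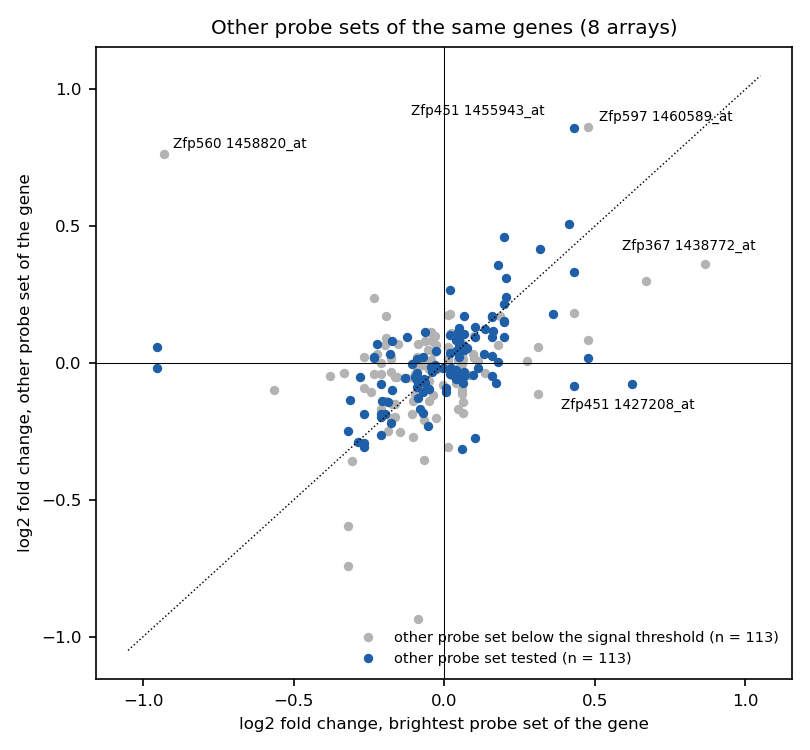
Each point is another probe set of a member gene, with the log2 fold change of the gene's brightest probe set on the horizontal axis and its own on the vertical axis, both from the 8 arrays. The dotted line marks equal values, and Zfp560 stands apart at -0.93 against 0.76.

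By role, members were counted in 3 lists made by hand with earlier results of these data known, so the counts are descriptions. Over all probe sets tested 0.928% rose and 0.750% fell. Of transcriptional and developmental regulators, 28 of 36 listed genes were members; 3 rose (Zfp367, Zfp217 and Zfp704), 0 fell, and the median was 0.024 (-0.015 over the 10 arrays); with the block 4 rose, Zfp451 being added. The bright regulators Zfp503 and Zfp148 were not called. Of listed KRAB genes with described targets, 8 of 18 were members; Zfp568 rose and the other 7 were not called, with a median of -0.084 over the 8 (-0.028 over the 10 arrays). Of these 8 values 2 were positive and 6 negative. Zfp961 had a value of 0.62 (SE 0.16, limma adjusted p = 0.104) and Zfp445 one of -0.072 (SE 0.057). Zfp386 stood at -0.27 (SE 0.12, adjusted p = 0.374) and Zfp12 at -0.16. Of genes acting on RNA or proteins, 11 of 15 were members and 0 were called, also with the block, with a median of -0.050 (-0.033 over the 10 arrays). In that list Zfp106, an RNA-binding protein required for motor neurons and muscle, had a value of -0.23 (SE 0.10, adjusted p = 0.372), the nucleolar gene Zfp593 -0.21, Zfp330 -0.17 and the ubiquitin ligase gene Zfp91 0.18.

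Genes of the KRAB silencing machinery were measured beside the members. Of 38 listed symbols 32 were tested, and 0 were called in either comparison, also with the block. Their median was 0.064 in the 8 arrays and 0.019 in the 10, with 18 positive and 14 negative values. Trim28 had mean signals of 2977 in wild type and 3224 in mutant arrays (0.12, SE 0.21, adjusted p = 0.923) and Setdb1 695 and 711 (0.033, SE 0.084, adjusted p = 0.952). The smallest p-values were those of the DNA methyltransferase gene Dnmt3b (0.35, SE 0.099, adjusted p = 0.142) and of Atf7ip, the partner of SETDB1 (0.35, SE 0.12, adjusted p = 0.250). Of 68 C2H2 genes named otherwise, 54 were tested; 1 rose, Sall4 (0.83, SE 0.16, adjusted p = 0.0408), 0 fell, and the median was 0.023 (-0.0063 over the 10 arrays). With the block 2 rose and 2 fell: Klf3 was added at 0.60 (adjusted p = 0.0325 with the block), Hic1 at -0.51 (0.00829) and Snai2 at -0.29 (0.0420).

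Markers of other cells were read in the same 8 arrays. Of the nerve list 3 of 7 genes were tested and 1, Gap43, fell (-0.34, adjusted p = 0.0466), with list means of 7.99 to 8.27 in wild type and 7.80 to 8.34 in mutant arrays over all 10. Of the white blood cell list 6 of 10 were tested, with Ptprc, Cd68, Lyz2 and Aif1 below the threshold, 0 were called, the median was 0.18, and list means ran from 7.73 to 8.34 in wild type and from 7.77 to 8.14 in mutant arrays. Of these 6 values 4 were positive and 2 negative. With the block 2 of these genes rose, Tyrobp (0.49, adjusted p = 0.0164 with the block) and Ctss (0.43, 0.0197). The red cell, endothelial, muscle and ectoderm lists had 0 called genes, with medians of 0.075, -0.013, -0.055 and 0.063. With the block 1 ectoderm gene fell, Krt14 (-0.45, adjusted p = 0.0174 with the block), while 6 of the 8 ectoderm values were positive and 2 negative. Of the 12 mesenchyme markers 0 were called without the block, with a median of 0.0024 and 7 positive and 5 negative values. With the block 2 of these 12 rose, Tbx4 (0.58, adjusted p = 0.00705 with the block) and Pdgfra (0.20, 0.0480). The marker genes named here were named after their values were seen. Their part in the differences of the members was not tested.

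Neighbouring numbered Zfp genes were compared along RefSeq gene order, taking runs of at least 3 with at most 1 other protein-coding gene between any 2. There were 27 such runs, 26 of them with a member, and they held 89 of the 229 members. Those members had a lower median signal (255, against 375 outside runs) and a median log2 fold change of -0.072, against -0.041 outside. Over the 10 arrays these medians were -0.058 and -0.032. Of the 89 members in runs 1 rose and 2 fell, and of the 140 outside 3 rose and 1 fell, where 0.928% of all probe sets tested rose and 0.750% fell. With the block, 2.40% of all probe sets tested rose and 3.01% fell. In runs 2 members rose and 5 fell with it, and outside runs 4 rose and 5 fell. The difference between the sets was not tested.

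In the run that holds Zfp568, no other member was called. Of its 12 members 5 were lower and 7 higher in mutant arrays, the median was 0.055, and apart from Zfp568 all lay between -0.24 and 0.16, the values of Zfp74 and Zfp84, named after they were seen. Over all 229 members 65.1% were lower in mutant arrays, against 52.3% of all probe sets tested. Short runs can therefore go one way without a link between neighbours, and no link was tested. Of the 22 runs with at least 2 members, 8 had every member lower and 1 every member higher. Of those with every member lower, the run of Zfp871, Zfp811 and Zfp799 had the lowest median, -0.34, with values of -0.27 (SE 0.11), -0.57 (SE 0.087) and -0.34 (SE 0.10), 1 of them called, and 2 with the block. Zfp799 had wild type signals of 724, 732, 785 and 714 and mutant signals of 570, 485, 645 and 644, with no overlap. In the run from Zfp677 to Zfp946, 11 of 12 members were lower, with a median of -0.12 and none called. The 6 members of the run from Zfp180 to Zfp61 were all lower, with a median of -0.10 and none called without the block. The run of Zfp560 held 3 members, with a median of -0.10, and the bright Zfp266 among them stood at 0.10 (SE 0.080). Duplicated neighbours can share sequence and hence probe signal, so values within a run may not be independent, which was not tested.

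**Figure D4:**
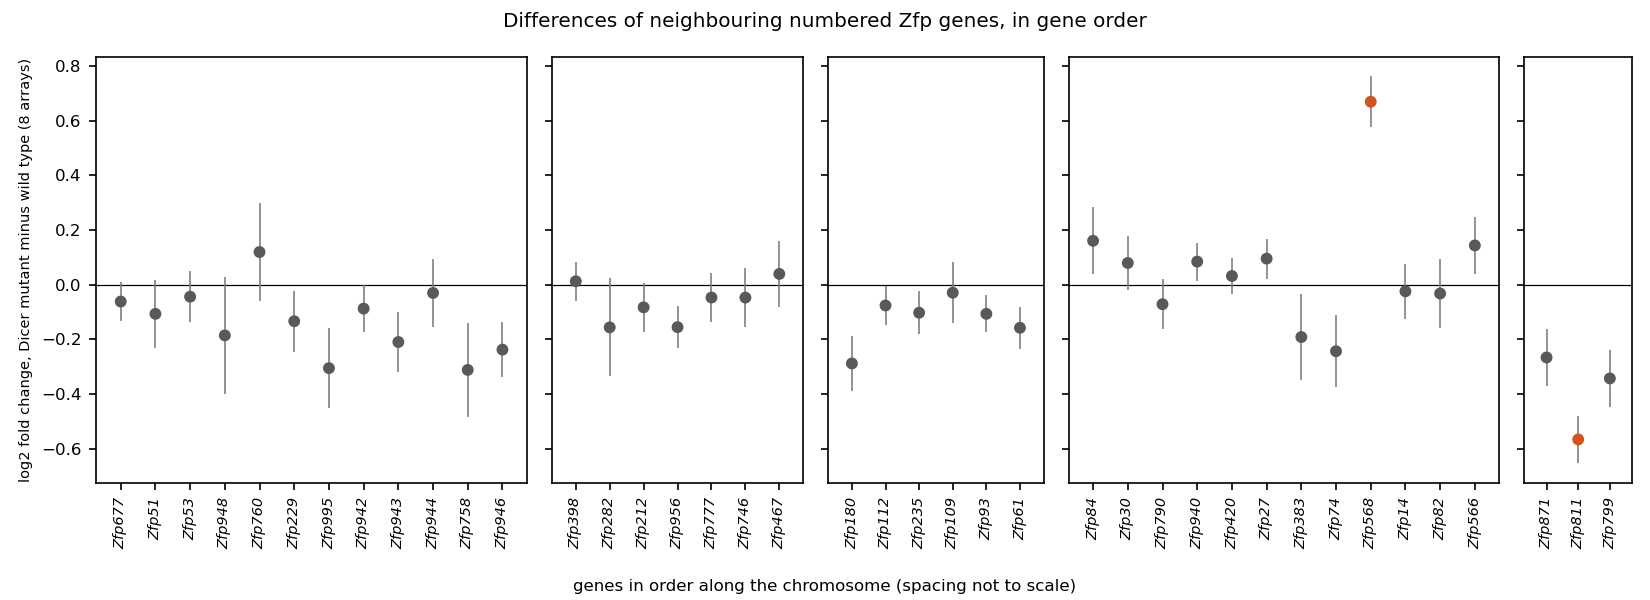
Log2 fold change in the 8 arrays, with its SE, for the members of 5 runs of neighbouring genes in chromosomal order; orange marks called genes. Zfp568 (0.67) stands alone in its run, while Zfp871, Zfp811 and Zfp799 all lie below 0.

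Members also differed between replicate numbers, whatever the genotype. The first principal component of the members took 40.2% of their variance, against 37.7% over all probe sets tested, and set numbers 1 to 3 apart from 4 and 5. The arrays numbered 4 and 5 lay wholly above the other 6 in 17 members (7.42%, against 8.34% of all probe sets tested) and wholly below in 28 (12.2%, against 11.7%), shares near those of all probe sets. Zfp397 had signals of 296 to 377 in the 6 arrays numbered 1 to 3 and 106 to 154 in the 4 others, a difference of -1.44 on the log2 scale, while its probe set 1425361_at had 179 to 197 and 182 to 220. Zfp771 had 569 to 755 against 321 to 374 at 1440817_x_at. Its second tested probe set 1440971_x_at also separated, at 210 to 278 against 122 to 159. Both are of the _x_at type, which can hybridise to related transcripts. The Zfp771 probe sets 1441260_a_at, 1441261_at, 1456757_at and 1460078_at, all below the threshold, did not separate by number. Zfp945 varied most, with an SD of 0.88, and did not separate by number; its other tested probe sets 1437127_at and 1441792_at stood at 0.057 and -0.020 in the 8 arrays. No label says what a number marks.

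**Figure D5:**
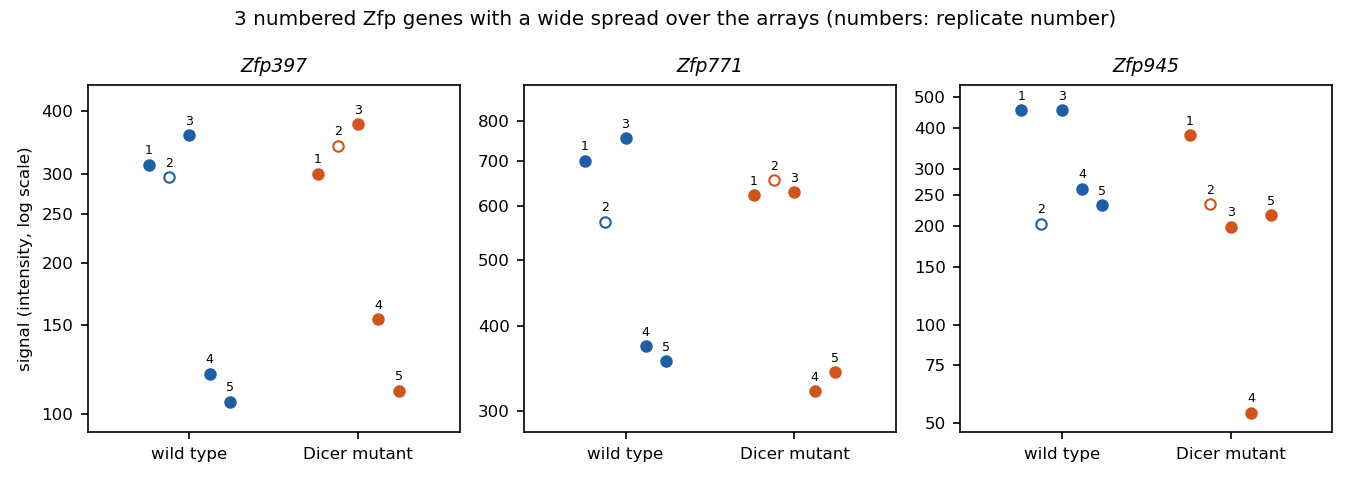
Signals (intensity, log scale) of 3 members with a wide spread, by group, each point labelled with its replicate number; open points are number 2. Zfp397 and Zfp771 split by number within both groups (106 to 154 against 296 to 377 for Zfp397), and Zfp945 has 1 low array, Dicer mutant 4, at 53.7.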

How the data were processed

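Biotin-labelled RNA of each sample was hybridised to an Affymetrix array, as the labels' protocols state. The authors deposited linear intensity values for 45037 probe sets and 64 controls. GCOS 1.3 is named in the submitters' processing notes and no other step, so the summarization model, scaling target and detection calls are unknown here. Trimmed means lay between 276 and 289 on all arrays, so no normalization was added, and the distance of dim probe sets from background is unknown.

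For the fits, values were floored at 1 and converted to log2. The 22519 non-control probe sets at or above the median mean were fitted with limma 3.58.1 in R 4.3.3 (lmFit, eBayes with an intensity trend), and p-values were adjusted over all of them (Benjamini-Hochberg), with calls at 0.05. The platform annotation gave 34945 probe sets 1 symbol, 932 several and 9160 none. All 229 members were found in the RefSeq gene table (GRCm38.p6), used for gene order alone. On simulated 8-array data the fit recovered 93% of 100 seeded log2 changes of 1 and 100% of changes of 2 among 22519 probe sets.

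The members, the lists, the 8 arrays and the rule for named genes (called members, the 10 largest rises and falls, the 6 brightest, the 5 most variable, and those with the smallest p of each list) were chosen with earlier results of these data known. As a check of pairing, mutant and wild type arrays of 1 number, each taken relative to its group mean, correlated at 0.55, 0.55, 0.71 and 0.32 for numbers 1, 3, 4 and 5 in the 8 arrays, and at -0.18 for number 2 in the 10. The highest correlation with another number was 0.54, 0.54, 0.52 and 0.52. Numbers 1 and 3 passed that value narrowly, number 4 passed it and number 5 did not, so pairing is not established. Results with the numbers as a block are given for the 8 arrays, beside the unblocked fit. In the 10 arrays the block was run only as an alternative setting. Alternatives were other normalizations, offsets, filters, variance models and probe set rules, the block, and leaving out each array.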

Additional observations from a re-analysis of the deposited data

Results flagged for a closer look

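Among the 34 named members, 6 signals lay far from the other 4 arrays of their group by Dixon's test at the 95% level. In all, 68 groups were tested. Chance alone gives about 1 such group in 20, but only where groups are not picked by their values. Of these, 4 belonged to Dicer mutant 2, the array whose Dicer1 signal went against its label: Zfp217 at 341, Zfp367 at 482, Zfp568 at 523 and Zfp445 at 2459. The first 3 were below the other mutant arrays and Zfp445 was above them. The array labelled wild type 2 was low for Zfp799, at 565. The last was Zfp266 in Dicer mutant 5, at 1456, below the other mutant arrays, which had 1614 to 1644.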

How the results depend on the processing

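With all 10 arrays, 0 members were called by limma under every setting run, also without any 1 replicate. The members' median log2 fold change stayed negative under every setting, between -0.058 and -0.019 in the 10 arrays and between -0.086 and -0.019 in the 8 arrays. The 7 called members of the 8 arrays became 4 with no filter, 30 with array weights, 16 with the replicate block, 4 with a gene's probe sets averaged, 0 in numbers 4 and 5 alone, and 1 to 9 without any 1 replicate. Apart from the block, these counts are given without the share over all probe sets, and no result about the members is drawn from them. In the 10 arrays the same number gave the highest correlation only for numbers 1 and 4, and the block gave 0. Among named members, signs turned only in uncalled ones with small or unsteady differences. In the 10 arrays these were Zfp445 (0.018 with quantile normalization, 0.0066 with median centring, 0.028 in numbers 1 to 3 alone), Zfp207 (0.070 with array weights, 0.067 with probe sets averaged, 0.028 in numbers 4 and 5 alone), Zfp397 (-0.63 with array weights), Zfp266 (-0.025 with probe sets averaged), Zfp930 and Zfp606 (-0.095 and -0.031 in numbers 1 to 3 alone) and Zfp503 (0.053 in numbers 4 and 5 alone). In the 8 arrays they were Zfp397 (-0.79 with array weights), Zfp106 (0.00040 with probe sets averaged) and Zfp503 (0.053 in numbers 4 and 5 alone). Without any 1 replicate of the 10 arrays, values ran from -0.068 to 0.020 for Zfp445, -0.079 to 0.018 for Zfp207, -0.12 to 0.40 for Zfp397, -0.091 to 0.011 for Zfp503 and -0.24 to 0.051 for Zfp771. In the 8 arrays they ran from -0.18 to 0.42 for Zfp397, -0.021 to 0.094 for Zfp207, -0.11 to 0.013 for Zfp503 and -0.36 to 0.0072 for Zfp771. The causes were not tested. Splits by numbers 1 to 3 and 4 to 5 of the 10 arrays were chosen after seeing the data. Without detection calls, the distance of dim probe sets from background limits what their differences show.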
